A study of Trametes gibbosa with 15 samples.

Results

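Late expression change on wood was followed as the step from day 7 to day 11 with poplar chips. The mycelium came from strain CB-1 of Trametes gibbosa, also known as Lenzites gibbosa, which is a white-rot fungus. The comparison uses 6 of the 15 libraries in the series, 3 from day 7 and 3 from day 11, chosen by their labels. All cultures stood for 10 days at 25 °C in low-nitrogen liquid medium with glucose. The control was harvested then without wood, and the other cultures received 2 g of chips of a hybrid poplar (Populus simonii × P. nigra) for a further 3, 5, 7 or 11 days. Per the labels, 15 bottles made up every one of the 5 groups and gave 3 biological replicates. All wood libraries also came from older cultures than the control, so age and wood cannot be told apart against the control, and age and time on wood cannot be told apart between days 7 and 11.

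White-rot fungi are basidiomycetes that can break down all main polymers of wood. They secrete oxidative enzymes such as laccases and peroxidases that attack lignin, together with hydrolases and oxidases that open cellulose and hemicellulose. In many of them the genes for these enzymes respond to the substrate and to nitrogen supply. The files used here do not pair gene identifiers with names or products, so genes are given by identifier and no enzyme family could be described.

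The 6 libraries held 35419940 to 45927894 estimated counts each. By the codes in their labels the 15 libraries fall into 2 library series. Replicate 1 of day 7 belongs to the first series, as do the 3 controls and replicate 1 of days 3 and 5. The other 5 libraries of the comparison belong to the second series, so day 11 has no library in the first series. The main test therefore carried library series as a term over all 15 libraries, and the comparison was repeated with replicates 2 and 3 of day 7 inside the second series. Inside that series, the root mean square log2 difference between libraries was 0.996 to 1.10 for 4 pairs of the same day and 1.05 to 1.10 for 6 pairs of different days. By this measure the spread between replicate cultures thus covered the whole range of differences between days. Other measures reached further between days than within a day. Pairs of the same day had 1089 to 1443 genes 2-fold apart, and pairs of different days had 1280 to 1489. Chi-square over degrees of freedom was 137 to 171 and 161 to 223 in these pairs.

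From day 7 to day 11 few genes could be called against that spread in edgeR. Of 11386 genes tested, 1 was called (0.00878%), which was gene_4914, and it was higher at day 11. A call needed a Benjamini-Hochberg adjusted p under 0.05 in the edgeR quasi-likelihood test and a change of 2-fold or more. In the same fit 1238 genes (10.9%) had an unadjusted p under 0.05. The low number of calls therefore does not show that few genes changed. Over all genes the median log2 fold change was 0.01, and the middle 50% of genes lay between -0.17 and 0.25. With DESeq2, an alternative test, 89 genes were called, 70 higher and 19 lower. Without the library series term 0 genes were called by edgeR, beside 688 at an unadjusted p under 0.05. Inside the second series 0 genes were called by edgeR, beside 1426 (12.5%) at an unadjusted p under 0.05.

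At an unadjusted p under 0.05 and 2-fold or more, 184 genes were higher at day 11 (1.62% of those tested) and 62 were lower (0.545%). These genes did not pass the adjustment, apart from gene_4914, and are described as a set and not as calls. The second series gave 231 higher (2.03%) and 68 lower (0.596%) of 11402 genes by the same limits. Where changes were 2-fold or more, higher values at day 11 thus outnumbered lower ones with and without replicate 1 of day 7. Without the limit on size, the unadjusted p was under 0.05 for 647 higher (5.68%) and 591 lower genes (5.19%).

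**Figure D1:**
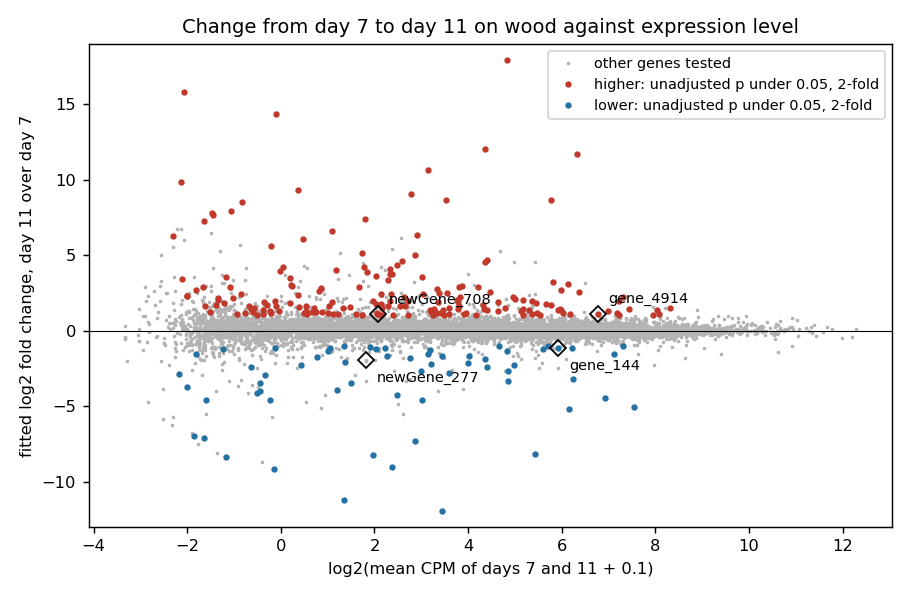
Fitted log2 fold change of day 11 over day 7 (y axis) against log2 of the mean CPM of both days plus 0.1 (x axis) for each gene tested. The 184 higher (red) and 62 lower (blue) genes with an unadjusted p under 0.05 and 2-fold change lie mostly at low and middle levels. Diamonds mark the 4 genes described by name, of which Trametes_gibbosa_newGene_277 is in neither set (edgeR unadjusted p = 0.057).

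The gene called, gene_4914, had its lowest level at day 7 and rose again by day 11. Its level was 216, 274 and 283 CPM (counts scaled to a common library size with TMM factors) in the 3 controls. At day 7 it was 52.3, 72.0 and 69.5 CPM in replicates 1 to 3, and at day 11 it was 125.5, 165 and 171 CPM. All day 11 libraries lay above all day 7 libraries, which the naming rule given below required of each gene named, and below all controls. The group means were 64.6 ± 10.7 CPM at day 7 and 154 ± 24.6 CPM at day 11 (SD, n = 3), and the fitted log2 difference was 1.12 (SE 0.13, adjusted p = 0.038 in edgeR). Days 3 and 5 stood at 122 ± 23.4 and 91.6 ± 11.7 CPM (SD, n = 3), so the means fell from the control through day 7 before the rise. Against the control, the fitted log2 fold change was -2.29 at day 7 and -1.17 at day 11, both past the adjustment (edgeR adjusted p = 3.7e-06 and adjusted p = 0.00075). Day 11 had thus regained 49.0% of the fitted log2 distance between day 7 and the control. The day 11 value against the control rests on a series shift of 0.42 (log2, second minus first series, edgeR adjusted p = 0.021), which was estimated from days 3, 5 and 7. With replicates 2 and 3 of day 7 alone the log2 fold change from day 7 to day 11 was 1.13 (SE 0.13), but the edgeR adjusted p was 0.15. When each of the 15 libraries was left out in turn, the adjusted p was above 0.05 in 12 of 15 fits, and the log2 fold change stayed between 1.04 and 1.25.

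Among falling reference genes, gene_144 had the smallest p of those that met the naming rule. It had been raised with wood and stood near or below the control by day 11. It held 39.7, 50.6 and 75.2 CPM in the controls and 338, 195 and 180 CPM in replicates 1 to 3 of day 3. At day 5 it was 173 and 99.6 CPM in replicates 1 and 2 and 106 CPM in the library without a replicate number. At day 7 the 3 libraries held 115, 86.5 and 65.2 CPM, and at day 11 they held 28.2, 32.0 and 37.2 CPM. Every day 11 library was thus below every day 7 library, as the naming rule required, and below every control. The log2 fold change from day 7 to day 11 was -1.18 (SE 0.21, edgeR adjusted p = 0.097), and -1.21 (SE 0.15, adjusted p = 0.15) in the second series, so it did not pass the adjustment in edgeR. DESeq2 called it, with an adjusted p of 5.1e-05. In each of days 3, 5 and 7 the first-series library was the highest of the 3, and the fitted series shift was -0.73 (log2, edgeR adjusted p = 0.012). With that shift in the model the log2 difference between day 11 and control was -0.03 (edgeR adjusted p = 0.95), whereas the means without it were 32.4 ± 4.55 CPM at day 11 and 55.2 ± 18.2 CPM in the control (SD, n = 3).

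Newly assembled loci, which the authors added to the reference annotation, held 0.437% to 1.06% of counts at day 7 and 0.508% to 0.619% at day 11. Of 616 tested loci, 19 were higher (3.08%) and 3 lower (0.487%) at an unadjusted p under 0.05 and 2-fold, beside 1.53% and 0.548% of 10770 reference genes. Trametes_gibbosa_newGene_708 has 6 transcripts and spans positions 61181 to 65550 of the minus strand of scaffold 26. It stood at 3.35, 2.14 and 2.54 CPM at day 7 and at 3.68, 5.23 and 7.77 CPM at day 11. The lowest day 11 value was close to the highest day 7 value, and the fitted log2 difference of 1.09 (SE 0.45, adjusted p = 0.41 in edgeR) did not pass the adjustment. Its controls stood at 5.68, 6.74 and 17.7 CPM. On the fitted log2 scale the control was 1.85 above day 7 and 0.76 above day 11 (edgeR adjusted p = 0.015 and adjusted p = 0.36). Trametes_gibbosa_newGene_277 has 10 transcripts and spans positions 47928 to 51789 of the minus strand of scaffold 82. It stood at 3.58, 2.83 and 8.83 CPM at day 7 and at 1.47, 1.79 and 1.93 CPM at day 11. The fitted log2 difference was -1.96 (SE 0.93, edgeR unadjusted p = 0.057, adjusted p = 0.47). This locus is thus not among the 3 lower ones counted above. The groups did not overlap, as the naming rule required, but replicate 3 of day 7 was well above the other 2. In the controls this locus stood at 2.28, 7.89 and 1.01 CPM. On the fitted log2 scale the control was 0.41 above day 7 and 2.37 above day 11, so the change led away from it. Neither difference passed the adjustment (edgeR adjusted p = 0.79 and adjusted p = 0.18), and both rest on a series shift of 1.27 (log2, edgeR adjusted p = 0.32). Both loci overlap new loci on the plus strand, and no source used here says that counting used strand, so reads of overlapping loci cannot be told apart. No source used here names the genome build behind these positions.

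**Figure D2:**
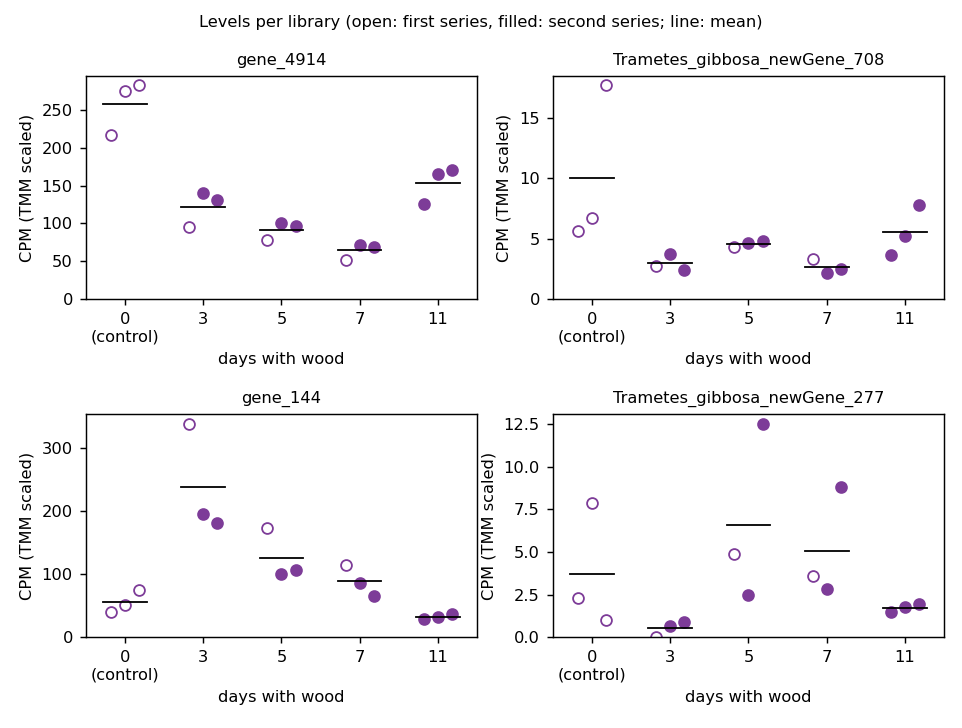
CPM per library (y axis, from 0) by days with wood (x axis) for gene_4914, Trametes_gibbosa_newGene_708, gene_144 and Trametes_gibbosa_newGene_277. Open circles are first-series and filled circles second-series libraries, and lines are group means; for gene_4914 the mean is 64.6 CPM at day 7 and 154 CPM at day 11, and for gene_144 it falls from 238 CPM at day 3 to 32.4 CPM at day 11.

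The 184 higher and 62 lower genes were mostly low in abundance. Below 1 CPM over all libraries, 3.48% of 1236 tested genes were among the higher and 1.21% among the lower. At 1 to 10 CPM the shares were 2.64% and 0.754% of 2653 genes, and at 10 to 100 CPM they were 1.25% and 0.445% of 4943. At 100 CPM or more they were 0.352% and 0.196% of 2554 genes. The share of genes with an unadjusted p under 0.05 and any size of change ran the other way, from 5.10% below 1 CPM to 13.2% at 100 CPM or more. In abundant genes the differences were therefore small, with a median absolute log2 fold change of 0.14 at 100 CPM or more and 0.52 below 1 CPM.

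Among the 184 higher genes the median fitted log2 fold change was 1.80, and 78 of them were 4-fold or more higher. For the 62 lower genes the median was -2.42, and 37 were 4-fold or more lower. Many of these genes varied widely between replicate cultures. On the scale of CPM + 0.1, 37 of the 184 (20.1%) and 23 of the 62 (37.1%) ranged 10-fold or more within day 7 or within day 11, against 4.42% of all genes tested. All 3 day 11 libraries lay above all 3 day 7 libraries in 93 of the 184, and below them in 30 of the 62. Over all genes tested, 7.35% lay above and 5.19% below in this way. The sets were chosen on these same libraries, which favours such separation, so these counts describe the sets and test nothing. In the second series, whose 5 libraries of these days also enter the 15-library fit, 183 of 183 higher and 60 of 60 lower genes tested there kept their direction, and 136 and 48 of them had an unadjusted p under 0.05.

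These genes as a set did not stand closer to the control at day 11 than at day 7. The fitted control level was nearer to day 11 than to day 7 in 84 of the 184 higher genes (45.7%) and in 25 of the 62 lower genes (40.3%), against 50.2% of all genes tested. For the higher genes the control lay between the levels of both days in 97, below both in 50 and above both in 37. For the lower genes it lay between them in 33, above both in 22 and below both in 7. Relative to day 7, the median log2 level of the 184 higher genes was 0.71 in the control, 0.51 at day 3, 0.40 at day 5 and 1.80 at day 11. For the 62 lower genes these medians were -0.63, -0.79, -0.74 and -2.42. All these differences share the day 7 libraries that helped to choose the genes, so they describe the set and test nothing.

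A movement towards the control was looked for in genes chosen without any day 7 or day 11 library. Replicate 1 of days 3 and 5 was compared with the 3 controls, 5 libraries of the first series. There 561 of 10983 genes were lower with wood (5.11%) and 315 were higher (2.87%) by the edgeR call rule given above. The late change of these genes was then read in the second series, as day 11 against replicates 2 and 3 of day 7, so choice and readout share no library and no series term. The gene called above, gene_4914, is among the lowered genes, and gene_144 is among the raised genes. Both lists are described by counts and medians and were given no test.

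Genes lowered with wood were, as a list, slightly higher at day 11 than at day 7. Of the 558 tested in the second series, 411 had a positive log2 fold change (73.7%), against 54.2% of all genes tested. Their median was 0.20, with the middle 50% between -0.02 and 0.48, where the median of all genes was 0.03. The unadjusted p was under 0.05 for 86 higher members (15.4%) and 10 lower members (1.79%), beside 6.98% and 5.53% of all genes tested. By the 2-fold limit as well, 22 members were higher (3.94%) and 3 lower (0.538%), where the background was 2.03% and 0.596%. All 3 day 11 libraries lay above replicates 2 and 3 of day 7 in 137 members (24.4%) and below them in 32 (5.70%), beside 16.2% and 16.1% of all genes. The shift was small beside the lowering itself, whose median was -1.60 (log2) in the first series.

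By size of the first lowering, the median late log2 fold change was 0.16 in 385 genes lowered 2- to 4-fold, 0.38 in 110 lowered 4- to 8-fold and 0.37 in 63 lowered 8-fold or more. The share with a positive value was 71.2%, 85.5% and 68.3% in these classes. By control level, the median late log2 fold change was 0.50 in 48 members under 10 CPM, 0.25 in 167 at 10 to 100 CPM, 0.16 in 260 at 100 to 1000 CPM and 0.22 in 83 at 1000 CPM or more. The median was thus above that of all genes in every class of size and level.

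The same genes held 27.5% to 28.8% of counts in the controls. At day 7 they held 9.91% in replicate 1, 8.65% in replicate 2 and 9.20% in replicate 3. Day 11 followed with 9.78%, 11.8% and 9.73% in replicates 1 to 3. Inside the second series all day 11 libraries lay above both day 7 libraries, but replicate 1 of day 7 was above replicates 1 and 3 of day 11. Replicate 2 of day 11 stood above the other 2, and without it the median late log2 fold change of the list was 0.13, with 65.2% of members positive.

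**Figure D3:**
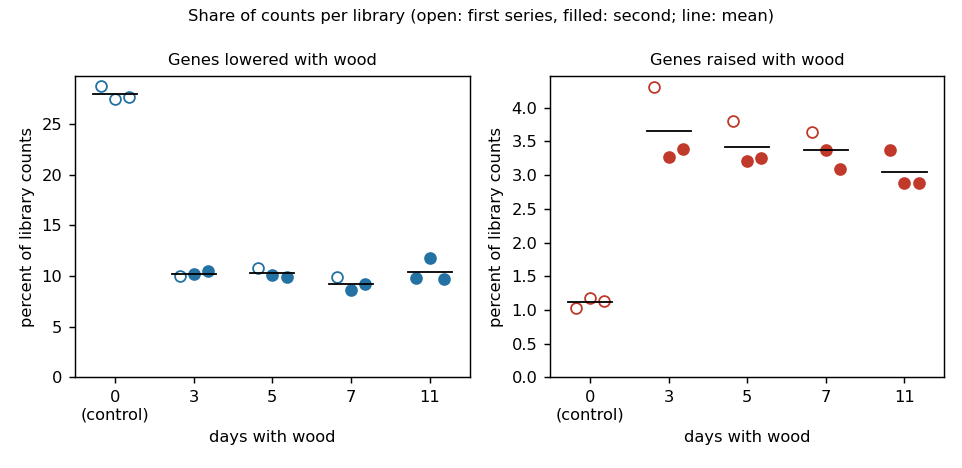
Percent of library counts (y axis, from 0) held by the 561 genes lowered with wood (left) and the 315 genes raised with wood (right), by days with wood (x axis). Each point is a library, open for the first and filled for the second series, and lines are group means; the lowered genes hold 27.5% to 28.8% in the controls and 8.65% to 11.8% at days 7 and 11. The genes were chosen on the 3 controls and on the open points of days 3 and 5.

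The late change of the lowered genes brought their fitted median back towards the level of days 3 and 5. In the second series the median log2 difference of day 7 was -0.27 against day 3 and -0.19 against day 5. That of day 11 was -0.07 against day 3 and -0.00021 against day 5. Day 7 was thus the day at which the list stood lowest. Relative to the mean of replicates 2 and 3 of day 7, the median over members was 0.12, 0.34 and 0.13 in the day 11 libraries, 0.26 and 0.31 at day 3 and 0.20 and 0.15 at day 5. These comparisons share the day 7 or day 11 libraries with the late change.

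Genes raised with wood differed less between days 7 and 11. Of 313 tested in the second series, 131 had a positive log2 fold change (41.9%), against 54.2% of all genes. Their median was -0.05, with the middle 50% between -0.23 and 0.19. The unadjusted p was under 0.05 for 31 lower members (9.90%) and 10 higher members (3.19%), beside 5.53% and 6.98% of all genes tested. With the 2-fold limit, 1 member was lower (0.319%) and 3 were higher (0.958%), both below the background of 0.596% and 2.03%. All 3 day 11 libraries lay below replicates 2 and 3 of day 7 in 67 members (21.3%) and above them in 27 (8.60%), beside 16.1% and 16.2% of all genes. The sign of the median rested on replicate 2 of day 7, without which it was 0.02, and it was 0.01 in the 57 members raised 4-fold or more. At day 11 the median over members was 0.15 above day 3 and 0.05 above day 5 (log2), although replicate 2 of day 11 was level with day 3. By share of counts, which abundant members weigh on most, the order was the other way, with second-series means of 3.33% at day 3, 3.23% at day 5 and 3.05% at day 11. The list held 3.64%, 3.37% and 3.10% of counts in the 3 day 7 libraries and 3.38%, 2.89% and 2.88% at day 11, and the groups overlapped. The controls held 1.03% to 1.17%.

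**Figure D4:**
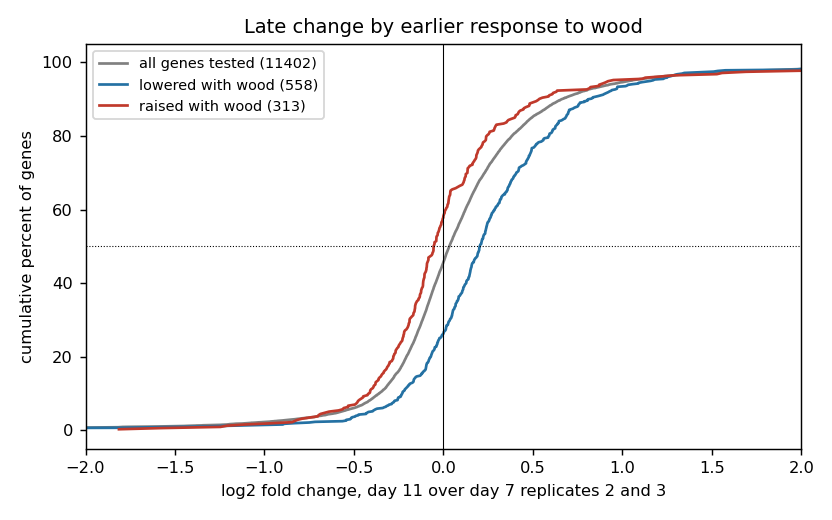
Cumulative percent of genes (y axis) against the log2 fold change of day 11 over replicates 2 and 3 of day 7 (x axis, shown from -2 to 2) for all 11402 genes tested, 558 genes lowered with wood and 313 genes raised with wood. The curve of lowered genes lies to the right, with a median of 0.20 against 0.03 for all genes, and that of raised genes slightly to the left, with a median of -0.05.

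**Figure D5:**
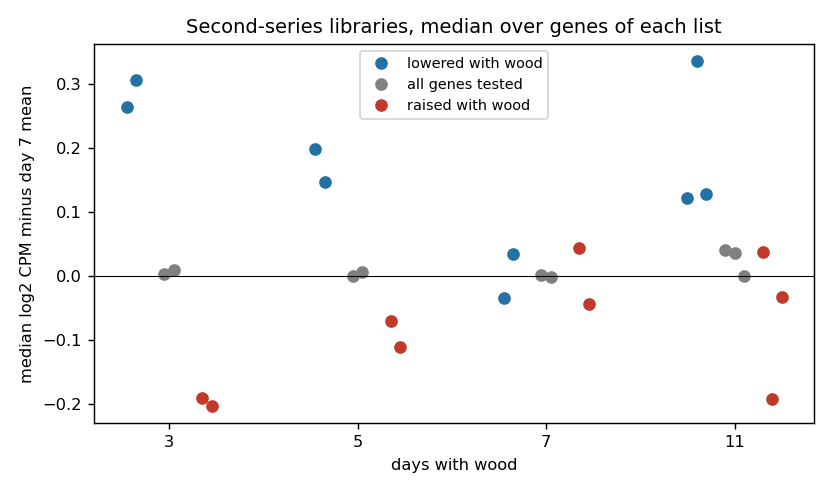
Median over genes of log2 CPM minus the mean of replicates 2 and 3 of day 7 (y axis) in each second-series library, by days with wood (x axis). In replicates 1 to 3 of day 11 lowered genes are at 0.12, 0.34 and 0.13. Only replicate 2 reaches their values at days 3 and 5, whereas raised genes at day 11 lie between -0.19 and 0.04.

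Over all genes, the root mean square log2 distance to the mean of the controls was 1.30 and 1.29 in replicates 2 and 3 of day 7 and 1.27, 1.20 and 1.25 in the 3 day 11 libraries. Replicate 1 of day 7, which shares the first series with the controls, was at 1.20. The distance was 1.24 and 1.23 in the second-series libraries of day 3 and 1.23 and 1.20 in those of day 5. The controls themselves, each against the mean of the other controls, were at 1.01, 1.03 and 1.06. A large part of every distance was thus also seen between replicate controls. In the second series day 11 was closer to the controls than day 7, by little, and its range overlapped that of days 3 and 5.

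The concentration of counts in abundant genes is given per library, since 3 libraries against 3 can give no exact p below 0.10 and no test could pass here. Per library, the top 10 genes by abundance held 3.55%, 4.15% and 4.14% of counts in replicates 1 to 3 of day 7 and 3.76%, 3.81% and 3.91% at day 11. Replicate 1 of day 7 was the lowest of all 6, and the first-series library was also the lowest of its group at days 3 and 5. Inside the second series both day 7 libraries lay above all day 11 libraries, with a difference of -0.32 percentage points (day 11 minus day 7), against -0.12 with replicate 1 of day 7. The top 100 genes held 16.7%, 16.5% and 16.8% at day 7 and 16.2%, 18.05% and 17.3% at day 11, and the groups overlapped. The controls held 7.61% to 8.02% in the top 10 and 26.2% to 26.9% in the top 100.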

How the data were processed

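Per the labels' protocols, poly-A RNA was sequenced as paired ends. HISAT2, StringTie, DESeq (version 1.10.1) and DESeq2 are named, with no roles, in the submitters' processing notes, and no source used here names the build or annotation. The authors deposited estimated counts, rounded up where checked (99.0% of 1846 counts from 1 to 50 in loci with a single transcript), and FPKM values scaled by transcript length and depth. One count column of day 5 matches no replicate number and was used as an unnumbered library of the second series. Set against the FPKM column titled replicate 3 of day 5, 29 of 29 loci compared fell within 2% of a constant. These loci held 100 or more counts. The unnumbered column therefore most likely holds replicate 3 of day 5.

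Counts were fitted in R 4.3.3 with edgeR 4.0.16 (filterByExpr, TMM, robust quasi-likelihood, group and library series, 9 residual degrees of freedom). The second series (5) and the list of wood genes (3) had their own fits. SE is the log2 fold change divided by the square root of F. The tests set each difference against the spread between cultures that was left after the terms of the fit. The 6 libraries differed pairwise by more than sampling noise (chi-square over degrees of freedom 137 to 292). Members, lists and tests were chosen with earlier results of these data known. The naming rule took, per direction, the reference gene and new locus of smallest p with 2-fold change, no overlap and 10 CPM (new loci 5 CPM) at day 7 or 11. Lists by product keyword could not be matched. Alternatives covered DESeq2 1.42.0, limma 3.58.1 on log2(FPKM + 1) and log2(FPKM + 0.1), scaling, filters, library series, a replicate block and leaving out libraries. The procedure was also run on simulated counts with planted changes, and no result given here rests on that run.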

Additional observations from a re-analysis of the deposited data

Results flagged for a closer look

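In gene_4914 the difference from the control was not the same at day 7 and at day 11. It differed by 1.12 on the log2 scale (edgeR adjusted p = 0.038). The control cancels in this comparison, so it repeats the test of day 11 against day 7 given above. Time on wood and culture age cannot be told apart in it. The adjusted p was above 0.05 in 12 of 15 fits that leave out 1 library and was 0.15 in the second series. This gene was the only one of 11386 tested that passed the adjustment with a 2-fold change. Its level was higher in 3 of 3 day 11 libraries than in every day 7 library, as the naming rule required. Groups of 3 libraries were too small to look for single libraries that stand apart.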

How the results depend on the processing

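The number of genes called between days 7 and 11, 1 as reported, depended on the setting. It was 89 with DESeq2, 3 with DESeq2 size factors, 2 with upper-quartile factors or library totals, 4 among genes of 10 CPM or more in 3 or more libraries, 0 without the series term and 0 in the second series. It was 3 in the 6 libraries alone, 8 and 7 with limma on log2(FPKM + 1) and log2(FPKM + 0.1), and 0 to 3 when 1 library was left out. A replicate block beside the series term, without the unnumbered library, gave 3. Libraries of equal number did not deviate together (r = -0.019, -0.019 and 0.013 for numbers 1 to 3), so equal numbers were not taken as pairs. In the second series 1 to 14 genes were called when 1 library was left out (added after seeing the data), the most without replicate 2 of day 7, where the lone day 7 library is assumed to vary like the other groups.

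The 184 higher and 62 lower genes at an unadjusted p became 87 and 32 with the 10 CPM filter and 87 and 33 with limma on log2(FPKM + 1). Leaving out 1 library gave 151 to 217 higher and 58 to 102 lower genes, the 102 without replicate 1 of day 11. Higher genes outnumbered lower ones in every setting run. The adjusted p of gene_4914 ran from 4.8e-11 (DESeq2) to 0.27 (6 libraries alone), always with a positive change. The median late change of lowered genes was 0.13 to 0.25 when 1 library was left out and 0.37 for genes lowered 4-fold or more, and that of raised genes was -0.10 to 0.02. The share of the 10 most abundant genes, lower by 0.12 percentage points at day 11 in counts, was 0.0041 higher in FPKM. Leaving out 1 library gave -0.32 (without replicate 1 of day 7) to -0.018 for that share and 0.086 to 1.00 for the 100 most abundant. The cause of these differences was not tested. Genes below 1 CPM rest on the fewest counts.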

Other observations

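The 3 steps between wood days differed in balance inside the second series. At an unadjusted p under 0.05 and 2-fold, day 5 had 135 genes higher and 146 lower than day 3, day 7 had 85 and 119 against day 5, and day 11 had 231 and 68 against day 7. The median absolute log2 fold change was 0.19, 0.17 and 0.22 in these steps. Calls past the adjustment in edgeR ran the other way, with 8, 4 and 0 genes. The last step covers 4 days and sets 3 libraries against 2, the others cover 2 days with 2 libraries against 2, neighbouring steps share libraries, and the difference in balance was not tested.

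Across 10926 genes, the wood effect in the first series and the late change in the second series, which share no library, had a Pearson correlation of -0.07 and a Spearman correlation of -0.17. For day 5 against day 3 and day 11 against day 7, also without a shared library, the values over 11402 genes were -0.01 and -0.07. Genes of one library are not independent replicates, so these values are descriptions.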
